A study of Mus musculus with 11 samples.

Results

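The mouse *Phf11* genes, *Phf11a*, *Phf11b*, *Phf11c* and *Phf11d*, are 4 neighbouring copies of a gene for a small protein with a PHD zinc finger. All 4 were found among the 19058 genes of the main count table, and all 4 passed the minimum for testing, a summed count of 30 over the WT mice, which 13937 genes met. They were selected on their levels in the WT, *Tlr7* KO and *Ifnar1* KO glands of this same table, so their fold changes, with standard errors, and the number of copies that pass a threshold are a description, given beside the share of all genes that pass it, and nothing is read from them.

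RNA was sequenced from whole lacrimal glands of male nonobese diabetic (NOD) mice, a strain in which the gland becomes inflamed without treatment. The mice were 3 WT, 5 *Tlr7* KO and 3 *Ifnar1* KO, with 1 library per mouse and no treatment in any group. The *Tlr7* KO mice came from a line fixed for a single CRISPR/Cas9 allele of this X-linked gene, with a 2 base-pair deletion, made in NOD embryos and backcrossed to NOD for 1 generation. The *Ifnar1* KO mice carried the em16 allele on the same NOD background. WT and *Tlr7* KO mice were 20 to 22 weeks old, and the age of the *Ifnar1* KO mice is not given in the sources used here. Neither deletion was limited to a cell type. The sources used here do not say whether mice of a group were littermates.

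TLR7 is a sensor of single-stranded RNA in endosomes, and its activation in immune cells leads to the release of type I interferon. Type I interferon binds a receptor of which IFNAR1 is a subunit. The receptor activates factors, among them STAT2 and IRF9, that bind the interferon-stimulated response element, a DNA sequence that repeats GAAA-like blocks in the promoters of interferon-stimulated genes. The PHD finger is a zinc-binding fold found in many proteins that act on chromatin. Human PHF11 has been described in T helper 1 cytokine expression with NF-kB and in the resection of broken DNA ends. The comparisons ask how each *Phf11* copy differs in glands that lack TLR7 or the type I interferon receptor.

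The copies lie side by side on the minus strand of chromosome 14 (GRCm38, GENCODE M21), within 118.5 kb. *Phf11a* (ENSMUSG00000044703) is at chr14:59276913-59297522, *Phf11b* (ENSMUSG00000091649) at chr14:59320964-59341351, *Phf11d* (ENSMUSG00000068245) at chr14:59347407-59365470 and *Phf11c* (ENSMUSG00000091144) at chr14:59380833-59395381. No other annotated protein-coding gene lies between them. *Phf11a* and *Phf11b* are the closest pair, with 806 of 831 aligned coding bases identical. *Phf11d* was 90.4% identical to *Phf11a* and 90.1% to *Phf11b*. *Phf11c* was 85.7% identical to *Phf11a*, 85.0% to *Phf11b* and 85.2% to *Phf11d*.

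A stretch of 90 coding bases is shown as an example of how the copies differ. It begins at coding base 281 of *Phf11a*, *Phf11b* and *Phf11d* and at coding base 341 of *Phf11c*, is read 5′ to 3′ from the GENCODE M21 transcripts, and capitals mark the bases that differ from *Phf11a*.
Phf11a: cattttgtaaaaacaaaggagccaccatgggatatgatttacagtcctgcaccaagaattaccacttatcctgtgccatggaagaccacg
Phf11b: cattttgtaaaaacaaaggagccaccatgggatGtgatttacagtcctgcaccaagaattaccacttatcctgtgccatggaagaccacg
Phf11d: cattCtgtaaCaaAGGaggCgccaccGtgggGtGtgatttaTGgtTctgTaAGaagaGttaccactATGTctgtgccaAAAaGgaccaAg
Phf11c: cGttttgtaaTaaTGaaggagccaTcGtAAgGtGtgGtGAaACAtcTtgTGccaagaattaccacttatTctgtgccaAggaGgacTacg

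In this stretch *Phf11b* differs from *Phf11a* at 1 base, *Phf11d* at 25 and *Phf11c* at 23. Of all 31-base words in the annotated transcripts, 45.8% of those in *Phf11a* and 37.1% of those in *Phf11b* occur in no other annotated gene. The same shares were 87.5% for *Phf11d* and 85.3% for *Phf11c*. Of all 100-base words, 91.9%, 86.2%, 96.2% and 94.1% of those in *Phf11a*, *Phf11b*, *Phf11d* and *Phf11c* occur in no other annotated gene. How far the counts of *Phf11a* and *Phf11b* rest on the division of shared reads by the authors' software thus depends on the read length, which is not given in the sources used here. The reference is from C57BL/6J mice, and sequence differences in NOD were not tested.

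The promoter sequences show where the copies are alike around an interferon-type motif. GAAANNGAAA and GGAANNGAAA (N is any base) were searched on both strands of RefSeq promoter windows (GRCm38.p6), each from 250 bases before to 50 after a gene start. The 85 bases shown are on the minus strand, 5′ to 3′, with the motif in capitals. For *Phf11a* they are chr14:59297527-59297611, for *Phf11b* chr14:59341356-59341440, for *Phf11d* chr14:59365471-59365555 and for *Phf11c*, where neither motif was in the window, the bases just before its RefSeq start, chr14:59393513-59393597.
Phf11a: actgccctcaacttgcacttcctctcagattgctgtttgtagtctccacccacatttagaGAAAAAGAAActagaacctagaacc
Phf11b: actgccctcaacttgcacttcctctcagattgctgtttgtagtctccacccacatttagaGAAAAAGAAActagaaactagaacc
Phf11d: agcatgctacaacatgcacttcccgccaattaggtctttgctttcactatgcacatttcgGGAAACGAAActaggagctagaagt
Phf11c: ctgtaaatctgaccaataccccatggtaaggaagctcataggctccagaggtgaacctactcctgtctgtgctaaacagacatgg

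The *Phf11a* and *Phf11b* sequences shown differ at 1 of 85 bases. GAAANNGAAA was found 29 to 20 bases before the *Phf11a* start and 50 to 41 bases before the *Phf11b* start. GGAANNGAAA spanned the RefSeq start of *Phf11d*, from 5 bases before it, which is upstream of the start that GENCODE gives. *Phf11c* has RefSeq and GENCODE starts that lie apart, and only the RefSeq window was searched. Among 32851 promoter windows of all genes, 3.44% held GAAANNGAAA, 2.72% GGAANNGAAA and 5.92% either. Of 33 genes of the interferon-stimulated list with a window, 63.6% held either in any of their windows. The list share is of genes and the others are of windows, so they are not directly comparable. A match is a description of these letters and not a binding site, and an absent match says nothing about regulation.

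The libraries held between 20512315 and 28814250 estimated counts, and 3 counts correspond to 0.08196 to 0.1583 CPM (counts scaled to library size with edgeR's TMM factors), which covers counting error only. *Tlr7* was at 2.94, 1.52 and 2.71 CPM in WT mice 1 to 3, at 0.494 to 0.949 CPM in *Tlr7* KO mice and at 0.251 to 0.822 CPM in *Ifnar1* KO mice. *Ifnar1* was at 10.5 to 15.1 CPM in WT and at 8.34 to 9.63 CPM in *Ifnar1* KO mice, so the transcript was still detected in the mutants. The gland epithelial genes *Krt8* and *Bhlha15* had means of 203.5 and 467.5 CPM in WT, 279.3 and 658.2 CPM in *Tlr7* KO and 255.2 and 752.1 CPM in *Ifnar1* KO. Other epithelial genes went the other way. *Krt14*, *Krt5*, *Slc12a2* and *Krt19* had means of 15.41, 11.43, 25.12 and 0.588 CPM in WT. Their means were 6.774, 6.684, 15.45 and 0.183 CPM in *Tlr7* KO, and 7.576, 7.091, 14.46 and 0.138 CPM in *Ifnar1* KO. *Bpifa2* and *Amy1*, secretory products of salivary glands, stood at 69174 and 18578 counts in WT mouse 3, 44430 and 10712 in *Ifnar1* KO mouse 2, and 3961 and 1215 in *Ifnar1* KO mouse 1, against at most 34 and 23 counts in each other mouse. In WT mouse 2 the summed B cell markers were 86.3 CPM against 306.5 and 268.7 CPM in WT mice 1 and 3, and its T cell, macrophage and interferon-stimulated sums were also the lowest of WT.

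*Phf11a* was at 0.957, 0.295 and 1.39 CPM in WT mice 1 to 3, from 28, 7 and 51 counts. In *Tlr7* KO mice 1 to 5 it was at 0.230, 0.217, 0.228, 0.330 and 0.264 CPM, from 5 to 8 counts each. WT mouse 2 lay within the *Tlr7* KO range, and the other two WT mice lay above it. In the *Ifnar1* KO mice *Phf11a* had 0, 1 and 0 counts, below every other mouse. These 3 *Ifnar1* KO libraries together held 1 count against 86 counts in WT, a depth-scaled ratio of 76.9 with a 95% exact interval of 13.4 to 3070 for counting error alone.

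*Phf11b* was the highest of the copies per length in WT. It was at 4.45, 1.22 and 4.54 CPM in WT mice 1 to 3. The *Tlr7* KO mice had 1.11, 1.57, 0.911, 0.659 and 1.43 CPM. The *Ifnar1* KO mice had 0.136, 0.486 and 0.0837 CPM, from 4, 13 and 2 counts. WT mouse 2 again fell among the *Tlr7* KO mice, and no *Ifnar1* KO mouse reached the lowest *Tlr7* KO mouse.

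*Phf11d* showed another pattern. Its WT values were 4.96, 3.12 and 6.58 CPM. In *Tlr7* KO mice 1 to 5 they were 4.44, 6.87, 4.86, 3.17 and 5.44 CPM. The ranges of WT and *Tlr7* KO nearly coincided, and the highest value of all was that of a *Tlr7* KO mouse. The *Ifnar1* KO mice had 1.29, 2.02 and 1.93 CPM, below all WT and *Tlr7* KO mice.

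*Phf11c* was the lowest copy per length in WT and *Tlr7* KO glands. It was at 0.992, 0.253 and 0.656 CPM in WT mice 1 to 3, from 29, 6 and 24 counts. The *Tlr7* KO mice had 0.158 to 0.522 CPM (median 0.230) and the *Ifnar1* KO mice 0.136, 0.336 and 0.293 CPM. All 3 groups overlapped, and with 3 to 13 counts per KO mouse smaller differences were not detectable at this depth.

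**Figure D1:**
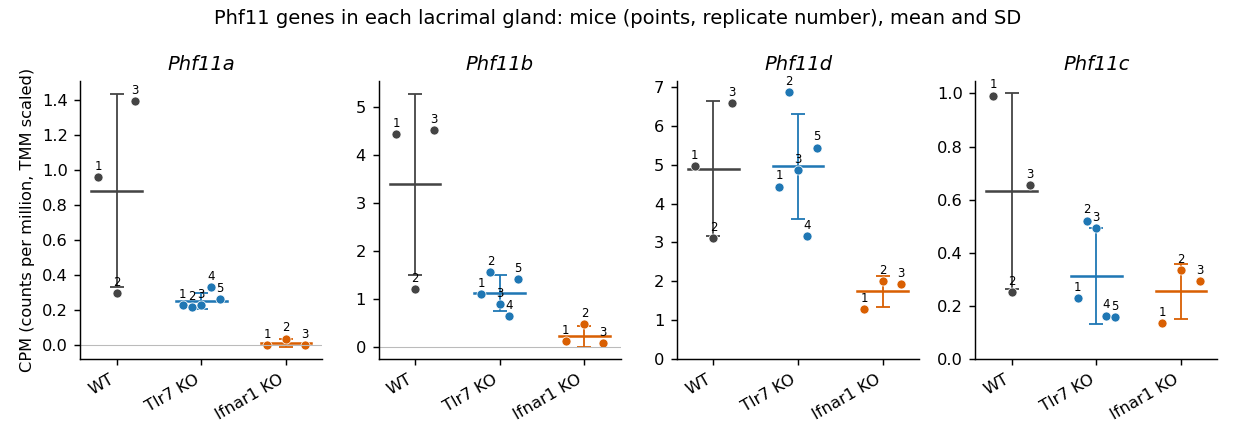
Level of each *Phf11* gene in every mouse, in CPM scaled with TMM factors, by genotype. Points are mice with their replicate number, horizontal lines are group means and bars are SD. The 3 *Ifnar1* KO mice lie below all other mice for *Phf11a*, *Phf11b* and *Phf11d*, and *Phf11d* of the 5 *Tlr7* KO mice (3.17 to 6.87 CPM) overlaps the WT range (3.12 to 6.58 CPM).

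In *Tlr7* KO against WT glands the means of *Phf11a*, *Phf11b* and *Phf11c* were lower, and that of *Phf11d* was not. The log2 fold change was -1.81 (SE 0.459) for *Phf11a* and -1.60 (SE 0.415) for *Phf11b*, and the group mean of *Phf11a* was 3.48-fold lower. For *Phf11d* the fitted change was 0.01 (SE 0.277), and for *Phf11c* -1.01 (SE 0.536). The edgeR quasi-likelihood test with Benjamini-Hochberg adjustment called 2 of the 4 copies lower, *Phf11a* and *Phf11b*, where 17.4% of all genes tested were called lower, and 32.7% in either direction. No copy had groups that did not overlap, while 14.2% of all genes had every *Tlr7* KO mouse below every WT mouse. The median change over all genes tested was -0.0373 on the log2 scale. In bulk tissue, fewer cells that express a gene and less of its RNA per cell cannot be told apart. Both calls rest on WT mice 1 and 3: without either of them edgeR called none of the copies, with 2 lower at an unadjusted p under 0.05 and changes of -1.76 and -1.31 for *Phf11a* and -1.37 and -1.34 for *Phf11b*. Without WT mouse 2, *Phf11a* was at -2.21, *Phf11b* at -1.998 and *Phf11c*, then also called, at -1.36.

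The means of all 4 copies were lower in *Ifnar1* KO than in WT glands. *Phf11b* was lower by 14.5-fold of group means, with a log2 change of -3.86 (SE 0.725). *Phf11d* was lower by 2.80-fold, with a log2 change of -1.52 (SE 0.327). The fitted value of *Phf11a*, -5.76 (SE 1.03), depends on the prior count because 1 count stands behind the KO group. *Phf11c* was at -1.35 (SE 0.615). Called lower were 3 of the 4 copies, *Phf11a*, *Phf11b* and *Phf11d*, where 12.4% of all genes tested were called lower and 19.2% in either direction. The groups of the same 3 copies did not overlap, and neither did those of 21.1% of all genes in this direction. None of the copies was called by edgeR without WT mouse 1, WT mouse 3, *Ifnar1* KO mouse 1 or *Ifnar1* KO mouse 3, with 3 lower at an unadjusted p under 0.05 each time. The values without each of these mice ran from -5.22 to -5.70 for *Phf11a*, from -3.50 to -3.62 for *Phf11b* and from -1.23 to -1.61 for *Phf11d*. With the salivary transcript-bearing WT mouse 3 and *Ifnar1* KO mouse 2 left out together, 1 copy, *Phf11b*, was called at -4.63, and *Phf11a* was at -7.09 and *Phf11d* at -1.34. With *Ifnar1* KO mouse 1 left out as well, which leaves a lone *Ifnar1* KO mouse assumed to vary like WT, none was called.

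*Ifnar1* KO was also set against *Tlr7* KO, a comparison without the WT mice. *Phf11a* had a fitted change of -3.88 (SE 0.781), from 1 count against 30, a ratio of 20.2 with a counting interval of 3.36 to 825. *Phf11b* was at -2.23 (SE 0.523) and *Phf11d* at -1.51 (SE 0.257). *Phf11c* was at -0.32 (SE 0.539). *Phf11a* and *Phf11d* were called lower, 2 of 4 copies, where 0.926% of all genes tested were, and 1.79% were called in either direction. Groups did not overlap for *Phf11a*, *Phf11b* and *Phf11d*, nor for 5.47% of all genes in this direction. DESeq2 called *Phf11b* too, and leaving out any of *Ifnar1* KO mice 1 and 3 or *Tlr7* KO mice 1, 3 and 5 left none called by edgeR, with 3 lower at an unadjusted p under 0.05 each time. The *Phf11a* call was also lost without *Tlr7* KO mouse 2 or 4.

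Beside these differences, markers of B cells, T cells, macrophages and dendritic cells had lower median sums in both KO groups, and those of plasma cells went both ways. The 10 B cell markers summed to 86.3 to 306.5 CPM in WT, 7.1 to 56.11 CPM in *Tlr7* KO and 2.637 to 21.85 CPM in *Ifnar1* KO glands. For the 11 T cell markers the ranges were 30.57 to 99.8, 6.91 to 37.94 and 1.8 to 17.82 CPM. For the 10 macrophage and dendritic cell markers they were 142.4 to 260.2, 84.71 to 126.6 and 36.92 to 85.57 CPM. *Tlr7* KO mouse 2, the highest of its group for *Phf11b*, *Phf11d* and *Phf11c*, was also the highest of its group in all 3 sums. For *Phf11a* it was the lowest of its group, but from 5 counts, as many as in *Tlr7* KO mouse 5. In the second deposited count table, described below, *Tlr7* KO mouse 3 was the lowest for *Phf11a*. In *Tlr7* KO against WT, 10 of 10 B cell, 9 of 11 T cell and 6 of 10 macrophage and dendritic cell markers were called lower, where 17.4% of all genes were. The T cell count was 3 without WT mouse 1 or WT mouse 3, and 5 without *Tlr7* KO mouse 3, 4 or 5. In *Ifnar1* KO against WT the counts were 10, 10 and 5, where 12.4% of all genes were called lower. They were 0, 0 and 0 by edgeR without WT mouse 1, *Ifnar1* KO mouse 1 or *Ifnar1* KO mouse 3, and 1, 0 and 0 without WT mouse 3, while at an unadjusted p under 0.05 in these fits 10 B cell, 10 T cell and 6 or 7 macrophage and dendritic cell markers were lower. Without WT mouse 2 they were 10, 11 and 10. None of the 31 was called in *Ifnar1* KO against *Tlr7* KO by edgeR at an adjusted p under 0.05, with median log2 changes between -1.06 and -0.85. At an unadjusted edgeR p under 0.05, 1 B cell marker, 0 T cell markers and 5 macrophage and dendritic cell markers were lower, and DESeq2 called 1, 0 and 5 lower. Without *Ifnar1* KO mouse 2, edgeR called 1, 1 and 5 lower. At 0 counts in at least 1 *Ifnar1* KO mouse were 4 B cell markers, among them *Ms4a1*, 2 T cell markers, among them *Trac*, and 1 dendritic cell marker, *Xcr1*. The other 6, 9 and 9 markers were detected in every *Ifnar1* KO mouse, some of them barely. Their lowest counts per mouse ran from 1 (*Fcer2a*) to 31 (*Cd79a*) for B cell markers and from 1 (*Cd8a*) to 14 (*Cd4*) for T cell markers. For macrophage and dendritic cell markers they ran from 7 (*Siglech*) to 205 (*C1qb*). All 31 markers were detected in every WT and *Tlr7* KO mouse. The 7 plasma cell markers summed to 726.4 to 902.1 CPM in WT, 686.0 to 755.9 CPM in *Tlr7* KO and 710.1 to 879.9 CPM in *Ifnar1* KO glands. Of these, 2 were called lower and 2 higher in *Tlr7* KO against WT, where 32.7% of all genes were called in either direction. In *Ifnar1* KO against WT 1 was called lower and 2 higher, where 19.2% of all genes were called. There, edgeR called none without WT mouse 1 or 3 or *Ifnar1* KO mouse 1 or 3 (1 lower and 2 higher at an unadjusted p under 0.05). Scaling by library size only gave 3 lower and none higher in *Tlr7* KO, and 1 lower and none higher in *Ifnar1* KO, against WT. *Jchain*, the joining chain of secreted antibodies, fell by 1.33 (adjusted p = 0.000952, edgeR) in *Tlr7* KO against WT, and *Mzb1* fell by 1.83 (adjusted p = 0.000667, edgeR). *Derl3* and *Sdc1* rose by 0.83 and 0.63 (adjusted p = 0.00204 and 0.00254, edgeR), and *Xbp1* was at 0.205 (adjusted p = 0.241, edgeR). *Xbp1* had the highest WT mean of the 7 plasma cell markers, 372.7 CPM, and so weighs most in their sum. Which cells the *Xbp1*, *Derl3* and *Sdc1* transcripts came from was not tested, so the sum need not follow plasma cells. *Jchain* was higher in *Ifnar1* KO than in *Tlr7* KO glands, with a log2 change of 1.02 (adjusted p = 0.0397, edgeR). That change was not called without *Ifnar1* KO mouse 3 or without any single *Tlr7* KO mouse. The 12 gland epithelial markers summed to 1039 to 1252 CPM in WT, below the 1407 to 1484 CPM of *Tlr7* KO and the 1432 to 1654 CPM of *Ifnar1* KO glands. Among them 4 were called lower and 3 higher in *Tlr7* KO against WT, where 32.7% of all genes were called in either direction. With scaling by library size only, 5 were called lower and none higher. The counts were 2 lower and 2 higher without WT mouse 1, WT mouse 3 or *Tlr7* KO mouse 3. In *Ifnar1* KO against WT 3 were called lower and 1 higher, where 19.2% of all genes were called in either direction. There, scaling by library size only gave 2 lower and none higher, and leaving out WT mouse 3 gave 1 lower. Without WT mouse 1, *Ifnar1* KO mouse 1 or *Ifnar1* KO mouse 3 edgeR called none, with 3 lower and 1 or 2 higher at an unadjusted p under 0.05. The part of these cells in the *Phf11* differences was not tested.

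The neighbours of the copies on the chromosome were measured in the same libraries. *Rcbtb1*, a gene for a protein with RCC1 and BTB domains, lies beyond *Phf11a* on the other strand. Its mean was 19.0 CPM in WT and 22.8 CPM in *Tlr7* KO, a log2 change of 0.26 (adjusted p = 0.0143, edgeR) that was not called in a second deposited count table (0.21, adjusted p = 0.0546, edgeR). Its change in *Ifnar1* KO was 0.30 (adjusted p = 0.0962, edgeR). *Setdb2*, a gene for a SET domain protein of the histone methyltransferase family, lies next to *Phf11c* on the same strand. Its means were 2.35 CPM in WT, 1.85 CPM in *Tlr7* KO and 1.65 CPM in *Ifnar1* KO, with changes of -0.35 (adjusted p = 0.265) and -0.53 (adjusted p = 0.16) that edgeR did not call. *Cab39l*, which encodes a relative of the scaffold of the LKB1 kinase complex, was at 0.01 (adjusted p = 0.982) and 0.30 (adjusted p = 0.384) in the same fits. None of the 3 was called in *Ifnar1* KO against *Tlr7* KO by edgeR, with adjusted p from 0.111 to 0.765, and neither motif was in their promoter windows. The predicted gene *Gm6904*, whose coding sequence is 95.5% identical to that of *Phf11a* and of *Phf11b*, had 3, 3 and 5 counts in WT, 0 to 3 in *Tlr7* KO and 0 or 1 in *Ifnar1* KO mice and was not tested.

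**Figure D2:**
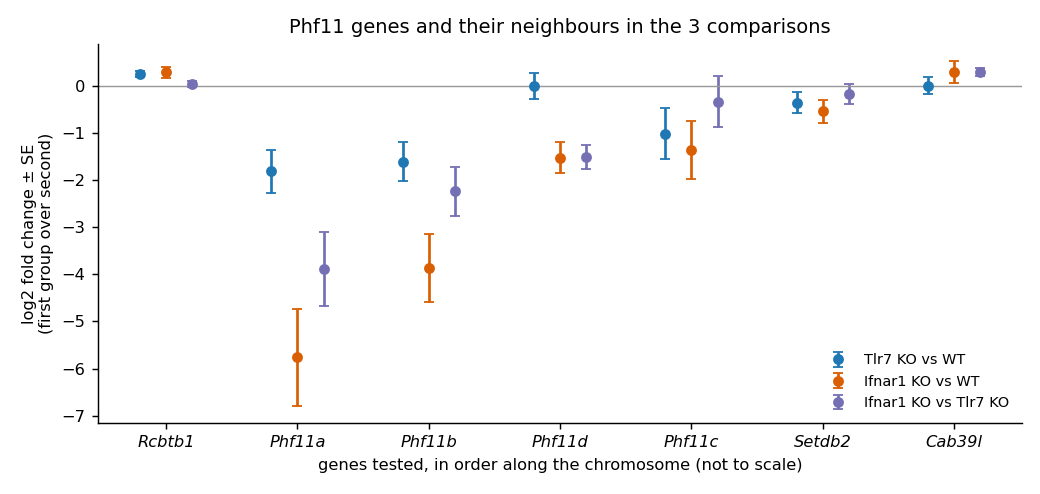
Log2 fold change with SE of the tested genes in order along chromosome 14 (spacing not to scale) for *Tlr7* KO over WT, *Ifnar1* KO over WT and *Ifnar1* KO over *Tlr7* KO. Values below 0 are lower in the group named first. *Rcbtb1*, *Setdb2* and *Cab39l* lie between -0.53 and 0.30, while *Phf11a* reaches -5.76 and *Phf11b* -3.86 in *Ifnar1* KO.

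The make-up of the family's counts is given by mouse. *Phf11d* held 43.7%, 63.8% and 50.0% of the counts of the 4 copies in WT mice 1 to 3. It held 73.9%, 74.9%, 74.9%, 73.3% and 74.6% in *Tlr7* KO mice 1 to 5, a narrow range above all WT mice. In the *Ifnar1* KO mice it held 82.6%, 70.1% and 83.6%. *Phf11b* averaged 32.9% in WT, 16.9% in *Tlr7* KO and 9.74% in *Ifnar1* KO glands. *Phf11a* made up 8.35%, 4.19% and 0.433% of the counts, and *Phf11c* 6.30%, 4.62% and 11.04%. The copies together summed to 9.80 ± 4.35 CPM (SD, n = 3) in WT, 6.66 ± 1.78 CPM (SD, n = 5) in *Tlr7* KO and 2.25 ± 0.657 CPM (SD, n = 3) in *Ifnar1* KO glands. The shares rest on 105 to 482 counts per WT or *Tlr7* KO mouse and on 46 to 77 per *Ifnar1* KO mouse.

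**Figure D3:**
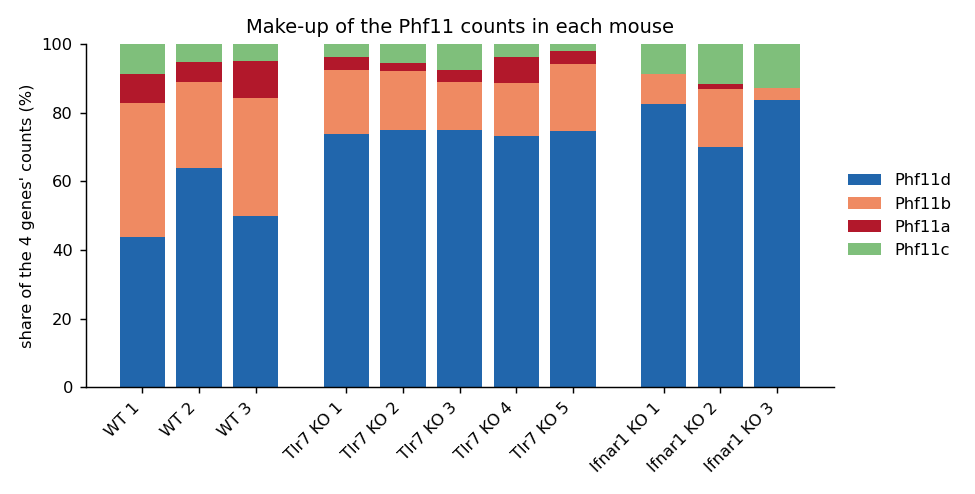
Percentage of the counts of the 4 *Phf11* genes that each gene holds, with 1 stacked bar per mouse. *Phf11d* holds 73.3% to 74.9% in the 5 *Tlr7* KO mice and 43.7% to 63.8% in the 3 WT mice, and *Phf11a* is nearly absent from the *Ifnar1* KO mice.

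Levels of the copies can be set against each other only per length, as CPM per kb of exon. In every WT mouse the order was *Phf11b*, *Phf11d*, *Phf11a* and *Phf11c*, with means of 2.87 ± 1.59, 1.09 ± 0.385, 0.651 ± 0.408 and 0.183 ± 0.107 CPM per kb (SD, n = 3). The ranges over WT mice of neighbours in this order overlapped for each neighbouring pair. In every *Tlr7* KO mouse *Phf11d* came first, with 1.10 CPM per kb, followed by *Phf11b* with 0.958, *Phf11a* with 0.187 and *Phf11c* with 0.0906. In 1 *Tlr7* KO mouse *Phf11d* and *Phf11b* were nearly equal, at 45.6% and 45.4% of the length-scaled sum, and in the second count table *Phf11b* came before *Phf11d* in all 5. In *Ifnar1* KO glands *Phf11d* was at 0.388, *Phf11b* at 0.199, *Phf11c* at 0.0737 and *Phf11a* at 0.0092 CPM per kb.

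Genes widely induced by type I interferon, a list of 46 without the *Phf11* genes, give a scale for these values. In *Tlr7* KO against WT, 8 of 46 were called lower and 1 higher, with a median log2 change of -0.64, where 17.4% of all genes were called lower. Scaling by library size only gave 21 lower and none higher. With 1 mouse left out the count lower was 2 without WT mouse 1 or 3, 3 without *Tlr7* KO mouse 1, 4 without *Tlr7* KO mouse 3 or 4, 15 without *Tlr7* KO mouse 2 and 32 without WT mouse 2. *Stat2*, a signal transducer of the interferon receptor, was at -0.05 (adjusted p = 0.928, edgeR) and *Ifi27* rose by 0.62 (adjusted p = 0.00262, edgeR). Only 1 list gene was lower than *Phf11a* and 2 were lower than *Phf11b*, but 40 were lower than *Phf11d*. Against WT, 39 were called lower in *Ifnar1* KO and none higher by edgeR, where 44 were lower and none higher at an unadjusted p under 0.05 and DESeq2 called 44 lower and none higher. Of all genes, 12.4% were called lower. Without WT mouse 1, *Ifnar1* KO mouse 1 or *Ifnar1* KO mouse 3 edgeR called 0 of the list, with 39 to 43 lower at an unadjusted p under 0.05, and without WT mouse 3 it called 3. The median was -2.89. There, 5 list genes were lower than *Phf11b*, 40 were lower than *Phf11d*, and *Oas2*, chosen after its values were seen and at 0 counts in all *Ifnar1* KO mice, was the 1 gene with a lower fitted value than *Phf11a*. Against *Tlr7* KO, 27 were called lower and none higher, with 45 lower and none higher at an unadjusted p under 0.05 and 39 lower with DESeq2, where 0.926% of all genes were called lower. The median was -1.95. With 1 mouse left out the count went down to 6 (*Ifnar1* KO mouse 1), 11 (*Tlr7* KO mouse 5), 12 (*Ifnar1* KO mouse 3), 13 (*Tlr7* KO mouse 3) and 14 (*Tlr7* KO mouse 1), and up to 42 (*Ifnar1* KO mouse 2), and with all 11 mice in a single fit it was 8. *Stat2* was at -1.31 (adjusted p = 0.0342, edgeR) in that comparison, beside -1.51 for *Phf11d*.

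**Figure D4:**
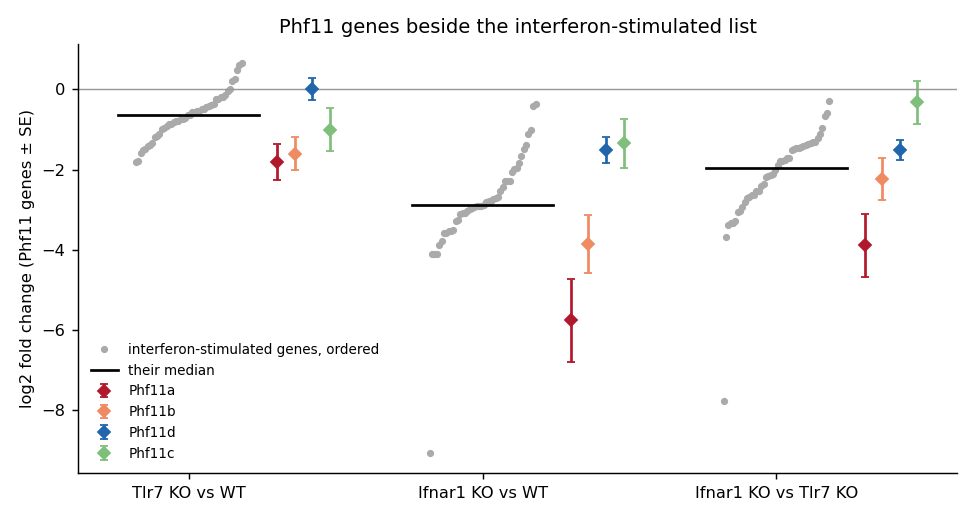
Log2 fold changes of the 46 interferon-stimulated genes (grey points in order of value, black line at the median) and of the *Phf11* genes (diamonds with SE) in each comparison. *Phf11a* and *Phf11b* lie below the medians of -0.64, -2.89 and -1.95 in the 3 comparisons, and *Phf11d* and *Phf11c* lie above the medians in *Ifnar1* KO. The lowest grey point, at -9.07 and -7.77, is *Oas2*, which had no count in *Ifnar1* KO glands.

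Other genes named for the PHD finger were counted in the same fits. Of 17, 4 were called lower and 1 higher in *Tlr7* KO against WT, near the 17.4% of all genes called lower and 32.7% called in either direction. The median log2 change was -0.17, and scaling by library size only gave 9 lower and none higher. Without any one mouse other than WT mouse 2, edgeR called 0 to 2 lower, with 4 or 5 lower at an unadjusted p under 0.05. The 3 most abundant, *Phf1*, *Phf2* and *Phf3*, had log2 changes of -0.08, -0.25 and -0.14. Comparing *Ifnar1* KO with WT, edgeR called none, and DESeq2 called none, where edgeR called 12.4% of all genes lower and 19.2% in either direction. At an unadjusted edgeR p under 0.05, 3 were lower and 1 higher, and the median was 0.05. EdgeR called 3 lower without WT mouse 2, and 1 higher without *Ifnar1* KO mouse 2. With all 11 mice in a single fit it called 2 lower and 1 higher. Comparing *Ifnar1* KO with *Tlr7* KO, edgeR called none and DESeq2 1 higher, with 0 lower and 5 higher at an unadjusted edgeR p under 0.05.

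Genes of the processes in which human PHF11 has been described were counted in the same fits. Of 13 genes of DNA end resection tested, edgeR called 1 lower and 2 higher in *Tlr7* KO against WT, where 32.7% of all genes were called in either direction. Without WT mouse 1 it called 0 lower and 1 higher. Among the 3 genes was *Rpa1*, a subunit of the single-stranded DNA binding protein RPA, at 0.33 (adjusted p = 0.0288). None was called in *Ifnar1* KO against WT or against *Tlr7* KO by edgeR, where 2 and 4 were lower at an unadjusted p under 0.05 and DESeq2 called 1 lower in each. Of 14 T helper 1 and NF-kB genes listed, 12 were tested, and the cytokine genes *Ifng* and *Il2* were not. Of the 12, 6 were called lower in *Tlr7* KO and 7 in *Ifnar1* KO against WT, where 17.4% and 12.4% of all genes were. The 6 became 2 without WT mouse 1 or 3. The 7 became 0 by edgeR without WT mouse 1, WT mouse 3, *Ifnar1* KO mouse 1 or *Ifnar1* KO mouse 3, with 7 to 9 lower at an unadjusted p under 0.05, and 11 without WT mouse 2. The difference between these lists was not tested. *Nfkb2*, which encodes the p100 precursor of the non-canonical NF-kB pathway, fell by 1.05 (adjusted p = 0.00531, edgeR) in *Tlr7* KO and fell by 1.21 (adjusted p = 0.0251, edgeR) in *Ifnar1* KO. *Rela* had changes of -0.25 (adjusted p = 0.0904, edgeR) and -0.37 (adjusted p = 0.0741, edgeR). Between the KO groups edgeR called none of the 12 and DESeq2 3 lower, with 4 lower at an unadjusted edgeR p under 0.05.

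The genes whose profile over the 11 mice was most like that of each copy were found by the root mean square difference of centred log2 CPM. For *Phf11b* these were *Slfn2* (0.245), the interferon-induced surface protein gene *Ly6e* (0.295), *Ms4a6b* (0.315), *Ms4a4b* (0.328) and *Slfn8* (0.331). For *Phf11a* they were *Lcp2*, an adaptor of T cell receptor signalling (0.397), *Eomes*, a transcription factor of cytotoxic lymphocytes (0.400), *Stx11* (0.407), *Cd180* (0.420) and *Bcl3* (0.428). For *Phf11d* they were the myeloid lectin gene *Clec4a2* (0.291), *2200002D01Rik* (0.301), *Plppr2* (0.314), *Ddx58*, which encodes the RNA sensor RIG-I (0.320), and *Irf9*, the DNA-binding partner of STAT2 (0.327). For *Phf11c*, at few counts, they were *Trim6*, *F2r*, *Moxd1*, ENSMUSG00000001417 and *Gm6264* (0.249 to 0.310). Among 13936 genes, *Phf11b* ranked 14 in likeness to *Phf11a*, at 0.479, and *Phf11a* ranked 52 in likeness to *Phf11b*. *Phf11d* ranked 899 in likeness to *Phf11a*, at 0.832. In the second table, of 13049 other genes, these ranks were 78, 51 and 1095. The mice share libraries, depth and cell make-up across genes, and these ranks are a description.

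A second deposited table, made from the same libraries with fewer counts assigned, gave the copies' values once more. It held 68.4% of the main table's *Phf11a* counts, 88.2% for *Phf11b*, 65.1% for *Phf11d* and 81.2% for *Phf11c*, against 58.0% over all genes. In *Tlr7* KO against WT the log2 changes were -2.07 for *Phf11a*, -1.58 for *Phf11b*, -0.00 for *Phf11d* and -0.88 for *Phf11c*. For *Ifnar1* KO against WT they were -5.31, -3.63, -1.53 and -0.87. For *Ifnar1* KO against *Tlr7* KO they were -3.20, -2.05, -1.53 and 0.01. The same copies were called lower as in the main table in both comparisons with WT, where 16.6% and 12.6% of the second table's genes tested were called lower. In *Ifnar1* KO against *Tlr7* KO *Phf11d* was called and *Phf11a* was not, where 0.973% were called lower. In this table the WT and *Tlr7* KO mice did not overlap for *Phf11a*, with WT mouse 2 at 6 counts and the *Tlr7* KO mice at 3 or 4.

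**Figure D5:**
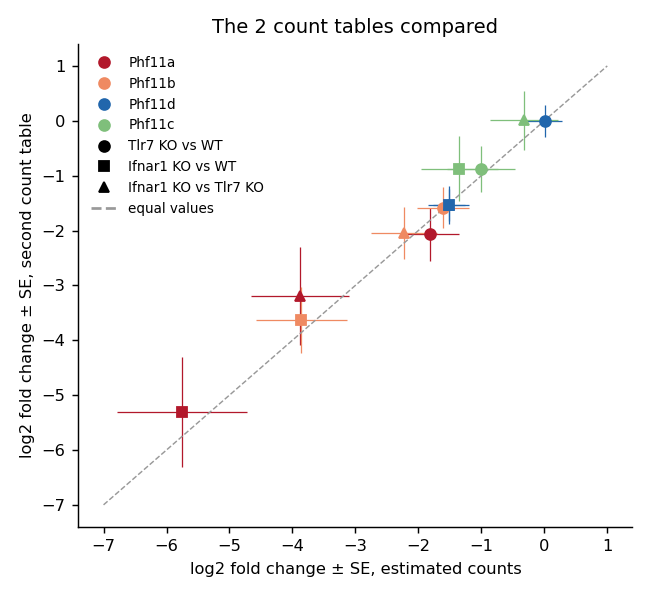
Log2 fold change of each *Phf11* gene from the main table of estimated counts (x axis) and from the second count table (y axis), with SE in both directions. Colours mark genes, symbols mark comparisons, and the dashed line marks equal values. *Phf11d* lies on the line (-1.52 and -1.53 in *Ifnar1* KO over WT), and *Phf11a* and *Phf11c* depart most from it.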

How the data were processed

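RNA sequencing of whole lacrimal glands from 11 male NOD mice was examined. The authors aligned reads to mm10 with HISAT2 2.1.0 and, separately, estimated transcript abundance with salmon, from which tximport gave gene-level values. The deposited main table holds these estimated counts as whole numbers for 19058 genes. It is named as normalized, but column totals differ as raw libraries do, so it was used as estimated counts. For 39017 genes a further table was deposited with whole-number counts, and its counter is not given in the sources used here, nor are read length and strand. Its 1 further *Ifnar1* KO column, of a mouse that the study dropped, was not used. The study's own filter reads differently from the sum of 30 WT counts used here.

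R 4.3.3 with edgeR 4.0.16 (TMM, quasi-likelihood test, two-sided, Benjamini-Hochberg over all genes tested, adjusted p under 0.05) was run on the groups compared, 1 comparison at a time, after tests on simulated data. SE is the log2 change over the square root of F. Alternatives were DESeq2 1.42.0, RLE or library-size scaling, filterByExpr, no gene filter, all 11 mice together, adjusted p under 0.01, replicate number as a block, the second table, each mouse left out and, chosen after seeing the data, the libraries with salivary transcripts left out. Log2 CPM for profiles used a prior count of 2. Identities come from alignments with Biopython 1.88.

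The 4 genes and all gene lists were chosen with earlier results of these data known, and lists were written from general knowledge. Named genes are the *Phf11* genes, *Tlr7*, *Ifnar1*, coding neighbours within 100 kb, the 3 most abundant genes of each list (1 of these is not reported here) and the 5 most similar profiles, while other genes are said to be chosen after their values were seen or stand as examples of markers. P values set a difference between groups against the spread between these mice.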

Additional observations from a re-analysis of the deposited data

Results flagged for a closer look

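Among 15 values checked in the 5 *Tlr7* KO mice, 1 stood apart from its group: *Phf11a* made up 7.62% of the *Phf11* counts in *Tlr7* KO mouse 4, from 8 counts, and its gap to the next mouse was 0.723 of the group's range. Chance sets apart about 1 in 20 such groups.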

How the results depend on the processing

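Under the alternatives that tested them, the log2 changes of *Phf11a* and *Phf11b* stayed below 0 in all 3 comparisons. Those of *Phf11d* did in both comparisons with *Ifnar1* KO. The filterByExpr alternative removed *Phf11a* before testing. *Phf11d* in *Tlr7* KO against WT, at 0.01, turned to -0.58 with library size only (where the median over all genes shifted to -0.54, and 4275 of 4398 calls were lower against 2429 of 4564), to -0.018 with filterByExpr, to -0.0035 without a gene filter, to -0.0028 with the second table, and to -0.23, -0.14 and -0.03 without WT mouse 2, *Tlr7* KO mouse 2 and *Tlr7* KO mouse 5. With single mice left out it ranged from -0.23 to 0.29. That median was -0.31 for *Ifnar1* KO against WT and 0.19 against *Tlr7* KO. *Phf11c* in *Ifnar1* KO against *Tlr7* KO turned to 0.0078 with the second table. The cause was not tested.

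In *Tlr7* KO against WT, genes called went from 4564 to 1969 at an adjusted p under 0.01 and *Phf11* genes called from 2 to 0. With filterByExpr, which left *Phf11a* untested, 1 was called, *Phf11b*. For *Ifnar1* KO against WT, genes called went from 2677 to 1 and *Phf11* genes from 3 to 0 at an adjusted p under 0.01, while genes called were 1339 with library size only and 5124 with all 11 mice together. Leaving out WT mouse 3 and *Ifnar1* KO mouse 2 gave 478 genes and 1 *Phf11* gene, and leaving out *Ifnar1* KO mouse 1 as well gave 341 and 0. Between the KO groups, genes called went from 250 to 30 and *Phf11* genes from 2 to 0 at an adjusted p under 0.01. There genes called were 577 with DESeq2 and 93 with all 11 mice together, and *Phf11* genes called were 1 with library size only, filterByExpr, all 11 mice together, the second table, or without *Ifnar1* KO mice 1 and 2.

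With 1 mouse left out, genes called ranged from 2600 to 6663, from 0 to 4666 and from 85 to 877 in the 3 comparisons, and *Phf11* genes called from 0 to 3, from 0 to 4 and from 0 to 3. In the fits of *Ifnar1* KO against WT without *Ifnar1* KO mouse 1 or 3, which called 0 genes, 3 *Phf11* genes were lower at an unadjusted edgeR p under 0.05.

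The sources used here tie replicate numbers to no litter, batch or day. Same-numbered mice had correlated deviations of -0.44 to 0.0305 in the comparisons with WT, and of 0.0641, 0.34 and 0.26 for numbers 1 to 3 between the KO groups. There, 5 of 6 mice correlated best with their own number, against 0 of 6 in each comparison with WT, a hint from the data and not from the design. The numbers were not taken to pair the mice. With replicate number as a block edgeR called 14, 0 and 502 genes and 0, 0 and 2 *Phf11* genes, where 1, 3 and 3 *Phf11* genes had an unadjusted p under 0.05. Between the KO groups the block also called 5 B cell, 3 T cell and 5 macrophage and dendritic cell markers lower, and none of these 31 without it.

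Per length of the longest transcript, *Phf11d* was at 1.64, 1.67 and 0.587 CPM per kb in WT, *Tlr7* KO and *Ifnar1* KO, against 1.09, 1.10 and 0.388. By this length *Phf11d* lay just above *Phf11b* in WT mouse 2, so the order given for every WT mouse did not hold there. Of the 5 most similar profiles, the second table shared 2 for *Phf11a*, 1 for *Phf11b*, 1 for *Phf11d* and 0 for *Phf11c*. Depth limits *Phf11a*, with at most 8 counts per KO mouse, and *Phf11c*, with 3 to 13.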
